A study of Homo sapiens with 8 samples.

Results

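The immediate early and MYC mRNAs are 10 genes, FOS, FOSL1, JUN, JUNB, JUND, EGR1, MYC, IER2, IER3 and ATF3, found by gene symbol in the expression tables among 57756 listed genes. They were followed in RNA pulled down with RPS6, which belongs to the small subunit of the ribosome, and in the matching input RNA. The 4 cell lines were Hep3B (hepatocellular carcinoma), HCT116 (colon), DU145 (prostate) and SW1990 (pancreas), each with 1 input library and 1 library from RNA immunoprecipitation (RIP) with an RPS6 antibody, 8 libraries in all. All are established human cancer lines, and no treatment is given for the libraries. The hepatocellular line is Hep3B in the study's methods and 3B in the sample titles, whereas the cell line field names Huh7, and it is called Hep3B here. The 8 libraries include no immunoprecipitation with a control antibody, so recovery unrelated to RPS6 was not measured.

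Immediate early genes are switched on within minutes of a growth factor or stress signal, without the need for new protein synthesis. The ERK cascade phosphorylates ternary complex factors that sit with SRF on CArG boxes, and CREB acts at cAMP response elements. FOS and JUN proteins pair as the transcription factor AP-1, EGR1 is a zinc finger factor, and MYC pairs with MAX to drive growth genes. Many of these mRNAs carry AU-rich elements in their tails and decay quickly.

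Bases just before the gene start are shown first, and control sequences farther upstream are not included. Of the 10 members, 7 were matched in the RefSeq promoter table (GRCh38.p14), namely FOS, JUN, JUNB, JUND, EGR1, IER2 and ATF3. The last 150 bases before the gene start are printed 5′ to 3′ on the strand of the gene for FOS (chr14:75278678-75278827, plus strand), JUN (chr1:58784048-58784197, minus strand), JUNB (chr19:12791336-12791485, plus strand), EGR1 (chr5:138465329-138465478, plus strand) and IER2 (chr19:13150261-13150410, plus strand). Capitals mark TGACG, the core of the cAMP response element, or its reverse complement CGTCA, and in EGR1 also the CArG boxes.
FOS: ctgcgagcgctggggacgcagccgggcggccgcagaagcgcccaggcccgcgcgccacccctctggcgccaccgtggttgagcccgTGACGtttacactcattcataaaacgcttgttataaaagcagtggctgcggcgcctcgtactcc
JUN: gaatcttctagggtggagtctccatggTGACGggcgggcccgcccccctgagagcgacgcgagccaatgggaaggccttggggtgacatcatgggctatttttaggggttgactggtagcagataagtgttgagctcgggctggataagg
JUNB: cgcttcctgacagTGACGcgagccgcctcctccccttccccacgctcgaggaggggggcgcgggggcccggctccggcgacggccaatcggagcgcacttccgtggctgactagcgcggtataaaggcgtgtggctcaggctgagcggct
EGR1: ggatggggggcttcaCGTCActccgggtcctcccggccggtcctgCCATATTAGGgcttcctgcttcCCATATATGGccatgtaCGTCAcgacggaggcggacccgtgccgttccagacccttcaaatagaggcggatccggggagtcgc
IER2: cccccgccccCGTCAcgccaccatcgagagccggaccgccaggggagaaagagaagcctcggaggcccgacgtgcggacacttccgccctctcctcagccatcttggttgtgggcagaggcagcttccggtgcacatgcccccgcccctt

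Searched on both strands over the 250 bases before the start, TGACG was found in 6 of the 7 promoters, against 21.2% of the 35116 promoters in the table. In FOS it began 64 bases before the start, and in EGR1 it lay at 135 and at 66 bases. Within these 250 bases a CArG box was found in EGR1 only, at 105 and 83 bases before the start, against 1.16% of all promoters. Bases farther upstream were not searched, so the other promoters cannot be said to lack one. TATAAA was found in FOS, JUNB and ATF3, against 10.7% of all promoters. It lay at 33 bases before the start in FOS, at 31 bases in JUNB and much farther away, at 230 bases, in ATF3. These are matches of letters and no measure of binding.

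Across the 4 cell lines, 6 of the 10 members were higher in the RPS6 RIP than in the input, 1 was lower and 3 did not pass the test. JUNB, JUND, MYC, FOS, JUN and IER2 were between 1.97 and 3.06 fold higher, EGR1 was 2.53 fold lower, and FOSL1, IER3 and ATF3 did not pass. All 10 were tested, with edgeR's quasi-likelihood test on 19921 genes and the cell line as a block. Without the block only JUND passed in that test, and with scaling to library totals FOS and JUN did not pass. Of all genes tested, 26.5% were called higher and 24.9% lower, so that calls were common in this comparison. The members had a median log2 fold change of 1.0, against -0.05 over all genes tested.

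Levels per length were read as FPKM (fragments per kilobase of transcript, scaled to library depth), and within a line as log2 of (FPKM + 1) in RIP minus the same in input, a scale that understates changes of low genes. By this ratio 5 members were higher in RIP in all 4 lines, against 33.7% of 16900 genes (those whose mean FPKM over the libraries reached 1), and 1 was lower in all 4, against 24.6%. Only JUND had every RIP library above every input, which held for 12.3% of those genes, and no member had every RIP library below every input, which held for 9.09%. The median ratio of the members was lowest in SW1990 (0.22), with 0.71 in Hep3B, 0.90 in HCT116 and 0.91 in DU145, and the medians over all those genes lay between 0.02 and 0.15.

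**Figure D1:**
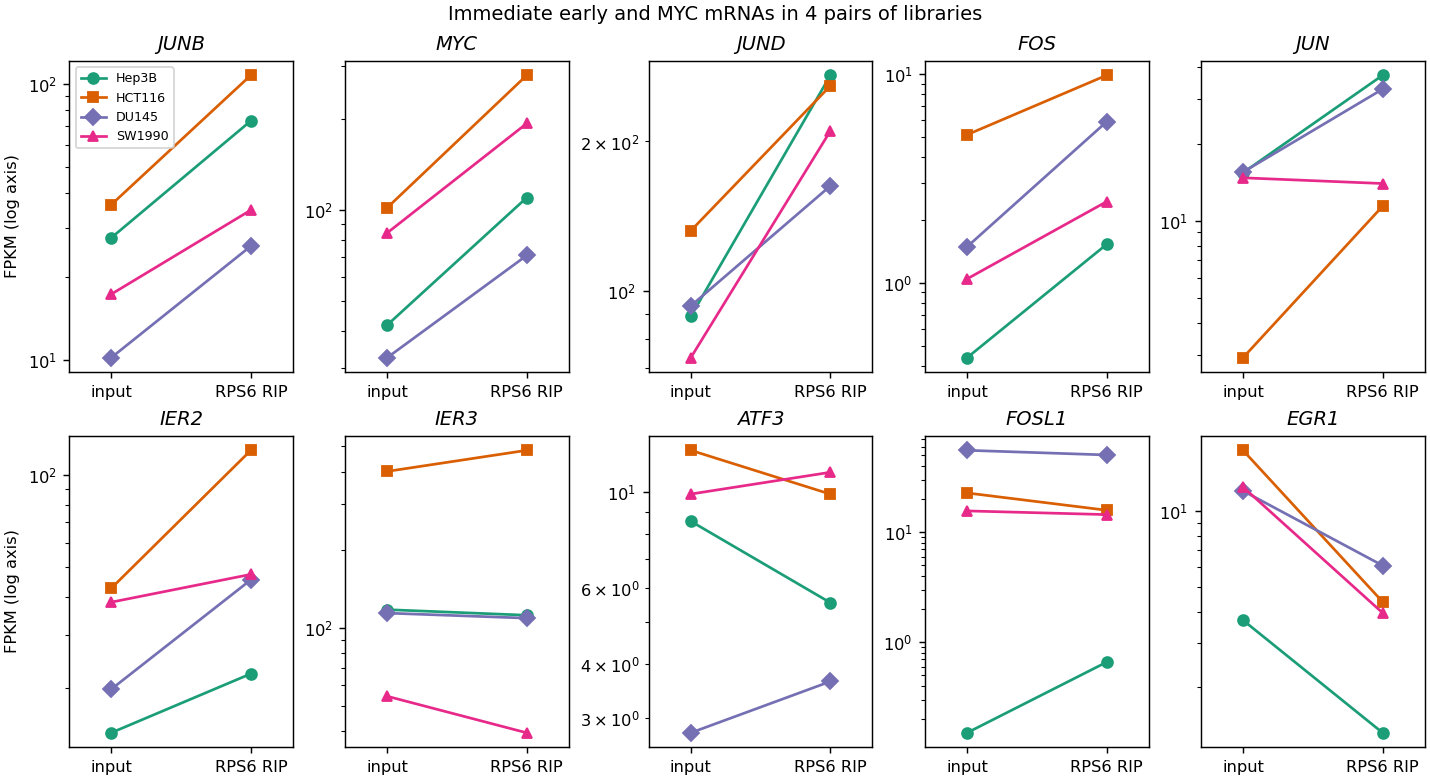
FPKM (log axis) of each of the 10 genes in the input and RPS6 RIP library of Hep3B, HCT116, DU145 and SW1990, 1 library per point with lines joining a pair. The RIP point lies above the input point in all 4 lines for FOS, JUNB, JUND, MYC and IER2 and below it in all 4 for EGR1.

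The JUN family supplies the subunit common to AP-1 dimers, and JUN, JUNB and JUND are intronless genes. JUND, the member expressed most steadily in resting cells (ENSG00000130522, hg19 chr19:18390562-18392432), had 88.9 FPKM for Hep3B, 132 for HCT116, 93.3 for DU145 and 73.3 for SW1990 in the inputs. In the RIP libraries it had 272, 259, 163 and 210.1 FPKM in the same order. The RIP libraries were all above all inputs. The log2 fold change of JUND was 1.38 (SE 0.20), with an adjusted p of 0.000248 in edgeR's quasi-likelihood test.

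JUNB, which often restrains JUN (ENSG00000171223), is listed at hg19 chr19:12873816-12985765, a span that the tables give to 11 genes, so that shared fragments could be split among them. Its input levels were 27.6 FPKM for Hep3B, 36.4 for HCT116, 10.2 for DU145 and 17.2 for SW1990. Its RIP levels were 73.3, 107, 25.8 and 34.8 FPKM. Every line was higher in RIP, and the groups overlapped. On counts JUNB had the largest fold change of the 10 genes, with a log2 value of 1.62 (SE 0.19) and an adjusted p of 7.13e-05 in edgeR's quasi-likelihood test. By the mean log2 ratio of FPKM, JUNB (1.29) and MYC (1.28) were level. With 0.1 rather than 1 added to the FPKM, FOS had a larger mean ratio (1.40) than JUNB (1.33).

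JUN, the classical partner of FOS (ENSG00000177606, hg19 chr1:59246464-59249785), had input levels of 15.4 FPKM for Hep3B, 2.92 for HCT116, 15.5 for DU145 and 14.7 for SW1990. The matching RIP libraries had 37.0, 11.4, 32.7 and 14.0 FPKM. Hep3B, HCT116 and DU145 were higher in RIP and SW1990 was not, and the groups overlapped. Over all lines the log2 fold change was 1.02 (SE 0.30, adjusted p = 0.0149 in edgeR's quasi-likelihood test). It no longer passed without the Hep3B pair (0.85, adjusted p = 0.0794) or without the HCT116 pair (0.74, adjusted p = 0.0663), and it was 1.41 without the SW1990 pair (adjusted p = 0.00130).

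**Figure D2:**
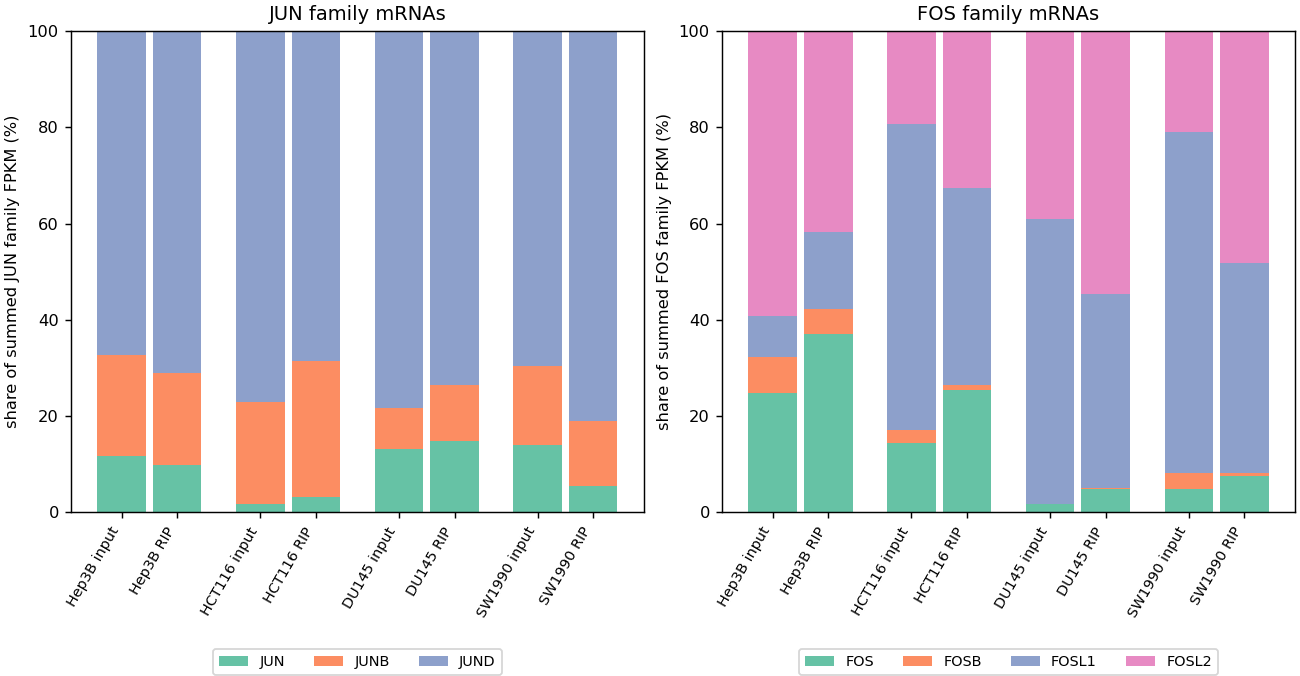
Share of the summed FPKM of the JUN family (left) and the FOS family (right) held by each gene, in percent, for the input and RIP library of each cell line. JUND fills most of every JUN bar, and the FOS share is larger in RIP than in input in all 4 lines.

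Within the JUN family, JUND made up between 67.4% and 78.4% of the summed FPKM in the inputs and between 68.6% and 81.2% in the RIP libraries. JUN made up only 1.70% of the sum in the HCT116 input and 3.02% in its RIP. In SW1990 the JUN share was 14.0% in input and 5.40% in RIP.

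The FOS family binds DNA mainly as a partner of JUN proteins. FOS itself (ENSG00000170345, hg19 chr14:75745476-75748933) had the lowest FPKM of the 10 genes in the inputs of DU145 and SW1990. Its level was 0.437 FPKM for Hep3B, 5.12 for HCT116, 1.49 for DU145 and 1.04 for SW1990 in the inputs. In RIP it was 1.53, 9.87, 5.91 and 2.45 FPKM. All 4 lines were higher in RIP, and the groups overlapped.

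FOS had a log2 fold change of 1.12 (SE 0.31, adjusted p = 0.0109 in edgeR's quasi-likelihood test). It did not pass without the HCT116 pair (log2 fold change 1.19, adjusted p = 0.0803) or without the DU145 pair (1.04, adjusted p = 0.0578), although its size changed little. The depth behind FOS in Hep3B was small, with 22 fragments behind the input value and 36 behind the RIP value. Scaled to library size (CPM), this was 0.615 (95% Wilson interval 0.406 to 0.931) against 1.04 (0.751 to 1.44). In Hep3B the FPKM of FOS was 3.50 fold higher in RIP and the estimated count 1.95 fold, and in DU145 the values were 3.98 and 2.55 fold.

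FOSL1, also called FRA1 and a late responder to ERK signalling (ENSG00000175592, hg19 chr11:65659519-65668044), had input levels of 0.150 FPKM for Hep3B, 22.8 for HCT116, 55.6 for DU145 and 15.6 for SW1990. In RIP the levels were 0.660, 15.9, 50.4 and 14.5 FPKM. It was lower in RIP in HCT116, DU145 and SW1990. In Hep3B it rested on 14 input fragments and 13 RIP fragments, so that no difference was detectable at this depth, although the FPKM values differ 4.40 fold. The log2 fold change was -0.37 (SE 0.21, adjusted p = 0.175 in edgeR's quasi-likelihood test).

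The FOS share of the summed FPKM of FOS, FOSB, FOSL1 and FOSL2 was 24.7% for Hep3B, 14.3% for HCT116, 1.59% for DU145 and 4.74% for SW1990 in the inputs, and 37.1%, 25.5%, 4.74% and 7.40% in RIP. The FOSL1 share was lower in RIP in 3 lines, at 63.5% and 40.9% in HCT116 and 71.1% and 43.7% in SW1990. The summed JUN family was 4.79 times the summed FOS family in the HCT116 input and 9.74 times in its RIP, 1.27 and 1.77 times in DU145, and 4.79 and 7.82 times in SW1990. In Hep3B the ratios were 74.6 and 92.8, against a FOS family sum of only 1.77 FPKM in the input, where FOS and FOSL1 rested on 22 and 14 fragments.

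EGR1, a zinc finger factor and a standard readout of ERK and SRF (ENSG00000120738, hg19 chr5:137801178-137805004), was the member that fell. Its input levels were 3.70 FPKM for Hep3B, 17.5 for HCT116, 12.1 for DU145 and 12.5 for SW1990. After the pulldown they were 1.32, 4.37, 6.09 and 3.95 FPKM. All 4 lines were lower in RIP, and the groups overlapped, since the Hep3B input was below the RIP levels of the other lines. EGR1 had a log2 fold change of -1.34 (SE 0.22, adjusted p = 0.000482 in edgeR's quasi-likelihood test), at percentile 20.4 of all genes tested.

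MYC, the growth regulator (ENSG00000136997, on chromosome 8 from 128747679 to 128753674 in hg19), had input levels of 41.7 FPKM for Hep3B, 102 for HCT116, 32.6 for DU145 and 84.2 for SW1990. RIP libraries held 110.3, 280.0, 71.0 and 194 FPKM. All 4 lines were higher in RIP, and the groups overlapped. The mean log2 ratio of FPKM was 1.28 ± 0.16 (SD, n = 4 lines), the smallest SD of the 10 genes. The fitted log2 fold change was 1.46 (SE 0.19, adjusted p = 0.000118 in edgeR's quasi-likelihood test).

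IER2, a small nuclear regulator (ENSG00000160888, hg19 chr19:13261228-13265722), had input levels of 14.3 FPKM for Hep3B, 42.6 for HCT116, 19.9 for DU145 and 38.3 for SW1990. Its RIP levels were 22.4, 121, 45.4 and 47.3 FPKM. All 4 lines were higher in RIP, by a log2 ratio from 0.30 in SW1990 to 1.48 in HCT116, and the groups overlapped. The log2 fold change was 0.97 (SE 0.22, adjusted p = 0.00413 in edgeR's quasi-likelihood test).

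IER3, which modulates apoptosis and ERK (ENSG00000137331, hg19 chr6:30710705-30712331), had the highest input level of the 10 genes in Hep3B, HCT116 and DU145. Its input levels were 117 FPKM for Hep3B, 401 for HCT116, 114 for DU145 and 54.5 for SW1990. Its RIP levels were 112, 483, 109 and 39.4 FPKM. By FPKM, HCT116 was higher and the other 3 lines lower in RIP, and the groups overlapped. On TMM-scaled counts the log2 ratio of DU145 was 0.0028 in place of -0.064. IER3 had a log2 fold change of -0.10 (SE 0.19, adjusted p = 0.695 in edgeR's quasi-likelihood test).

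ATF3, a stress-induced partner of JUN proteins (ENSG00000162772, hg19 chr1:212738675-212794119), had input levels of 8.56 FPKM for Hep3B, 12.5 for HCT116, 2.76 for DU145 and 9.89 for SW1990. Its RIP levels were 5.54, 9.89, 3.64 and 11.1 FPKM. By FPKM, Hep3B and HCT116 were lower and DU145 and SW1990 higher in RIP, and the groups overlapped. On TMM-scaled counts SW1990 was lower too, with a log2 ratio of -0.17, so that only DU145 was higher. The log2 fold change was -0.33 (SE 0.27, adjusted p = 0.333 in edgeR's quasi-likelihood test). The spans listed for IER2, IER3 and ATF3 each hold 1 further gene, and whether counting used the strand is not given in the sources used here.

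**Figure D3:**
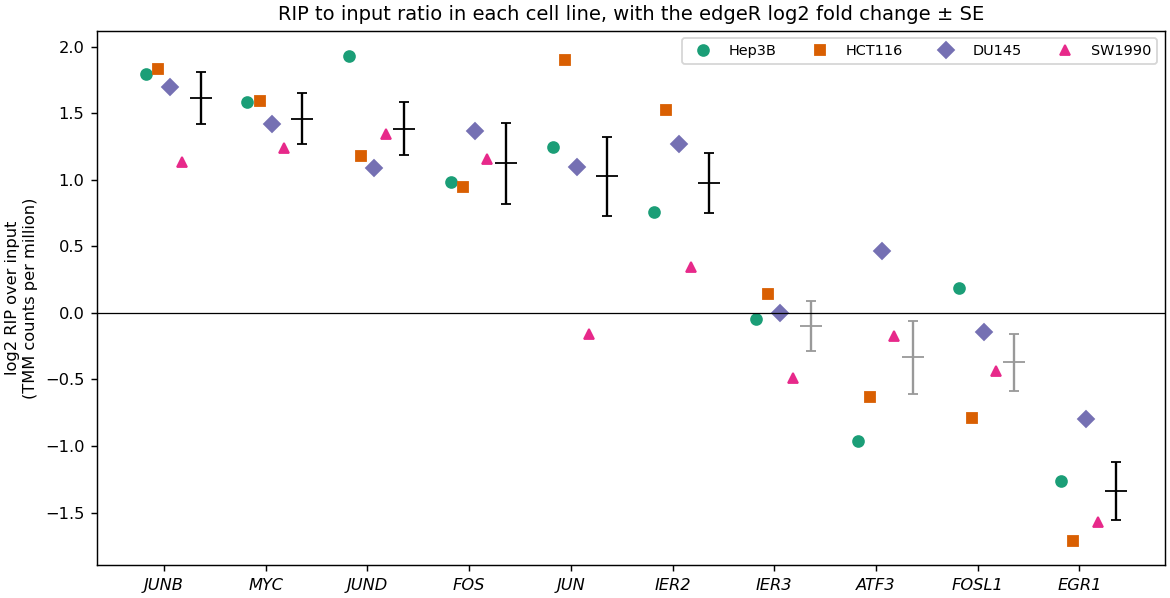
RIP over input for each of the 10 genes and 4 cell lines as log2 ratios of TMM-scaled counts. A bar beside each gene gives the edgeR log2 fold change and its SE. MYC has the narrowest spread of points (SD 0.16), with a fold change of 1.46 (SE 0.19). The JUN value of SW1990 lies below 0 while the other 3 lie above.

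Taken over the lines without a model across genes, an exact sign-flip permutation test (two-sided, 4 pairs) gave p = 0.125 for FOS, JUNB, JUND, EGR1, MYC and IER2, which is the smallest p that 4 pairs allow. The design can therefore not reach the threshold of 0.05 by this test. Only the cell lines repeat, with no second library in any line, so that each p sets the mean shift against the spread between these lines.

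The lines differed in these genes before any pulldown, and in bulk RNA more cells with an mRNA cannot be told apart from more of it per cell. By FPKM in the inputs, 8 of the 10 genes were highest in HCT116, and FOSL1 and JUN in DU145. On TMM-scaled counts JUN was highest in Hep3B, with 47.7 CPM against 41.9 in DU145. The ratio of the highest to the lowest input was 1.8 for JUND, 3.13 for MYC, 11.7 for FOS and 370.2 for FOSL1, the last against 14 fragments in Hep3B. With 1 library per line and condition these orders have no replicate check. Hep3B with HCT116 and DU145 with SW1990 were deposited as separate tables and may have been normalized separately.

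With fragments scaled to library totals, counting intervals kept most neighbouring lines apart. Of the 30 neighbouring pairs in the inputs, 6 had overlapping 95% Wilson intervals. They were JUN in DU145 and Hep3B and in Hep3B and SW1990, JUND in SW1990 and Hep3B, EGR1 in SW1990 and DU145, IER3 in DU145 and Hep3B, and ATF3 in SW1990 and Hep3B. In the RIP libraries 5 genes were highest in HCT116, and 2 of the 30 neighbouring pairs overlapped.

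The genes around these factors were read from 6 lists. Of 36 tested other immediate early mRNAs, 15 (41.7%) were higher in RIP, 5 (13.9%) lower and 16 did not pass. Over all genes tested, 26.5% were higher and 24.9% lower. The list had a median log2 fold change of 0.48. CSRNP1 was higher by a log2 value of 1.63 (SE 0.20) and IER5L by 1.60 (SE 0.20). GADD45A, a growth arrest gene, had -1.8 (SE 0.29) and ZFP36, which binds AU-rich elements, -1.53 (SE 0.26). Their adjusted p in edgeR's quasi-likelihood test lay between 9.2e-05 and 0.000756.

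Of 14 tested other AP-1 and bZIP genes, 4 (28.6%) were higher, 5 (35.7%) lower and 5 did not pass, with a median of 0.30. The shares over all genes tested were 26.5% and 24.9%. BATF2 had a log2 fold change of 1.12 (SE 0.42, adjusted p = 0.0456 in edgeR's quasi-likelihood test) and MAFK of 1.09 (SE 0.21). CREB1, which binds the cAMP response element, was lower with -1.97 (SE 0.19), from 35.9 to 43.2 FPKM in the inputs and from 11 to 22.6 FPKM in RIP. CREM was lower with -1.49 (SE 0.31).

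Of 18 genes of SRF, its cofactors and the MAP kinases, 8 (44.4%) were higher and 6 (33.3%) lower, with a median of 0.35. The shares over all genes tested were 26.5% and 24.9%. MKL1, an SRF cofactor, had the largest value at 2.55 (SE 0.23), with 6.56 to 13.3 FPKM in the inputs and 38.8 to 42.9 in RIP. RPS6KA1, a kinase downstream of ERK, had 2.30 (SE 0.18). ELK4, a ternary complex factor, was lower with -1.98 (SE 0.26) and MAPK8, a JUN kinase, with -1.40 (SE 0.20).

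Of 10 feedback inhibitors of ERK, 4 (40%) were higher and 0 lower in edgeR's quasi-likelihood test, against 26.5% and 24.9% of all genes tested. At an unadjusted p under 0.05 and in DESeq2, 0 were lower too, and the median was 0.34. The phosphatases DUSP4 and DUSP5 had log2 fold changes of 0.99 (SE 0.22) and 0.90 (SE 0.23). Of 11 tested genes of the MYC and MAX network, 5 (45.5%) were higher and 3 (27.3%) lower, with a median of 0.42. MLXIP was higher with 1.43 (SE 0.19) and MYCL with 1.31 (SE 0.26), whereas MAX, the partner of MYC, was lower with -0.99 (SE 0.21) and MXI1, which competes for MAX, with -1.77 (SE 0.21).

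Of 18 genes for binding AU-rich elements and for mRNA decay, 4 (22.2%) were higher and 9 (50%) lower. The shares over all genes tested were 26.5% and 24.9%. The median of the list was -0.42, below that of all genes. KHSRP, which promotes decay of mRNAs with AU-rich elements, was higher with 1.51 (SE 0.22) and CNOT1, the scaffold of a deadenylase complex, with 1.71 (SE 0.24). CNOT7, a deadenylase of the same complex, was lower with -2.75 (SE 0.20), from 133 to 236 FPKM in the inputs and from 24.1 to 45.2 in RIP. DCP2, the decapping enzyme, was lower with -1.62 (SE 0.27). BATF, EGR2 and MYCN were too low to test, and ZFP36, BTG1 and BTG2 stand in 2 of the lists.

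**Figure D4:**
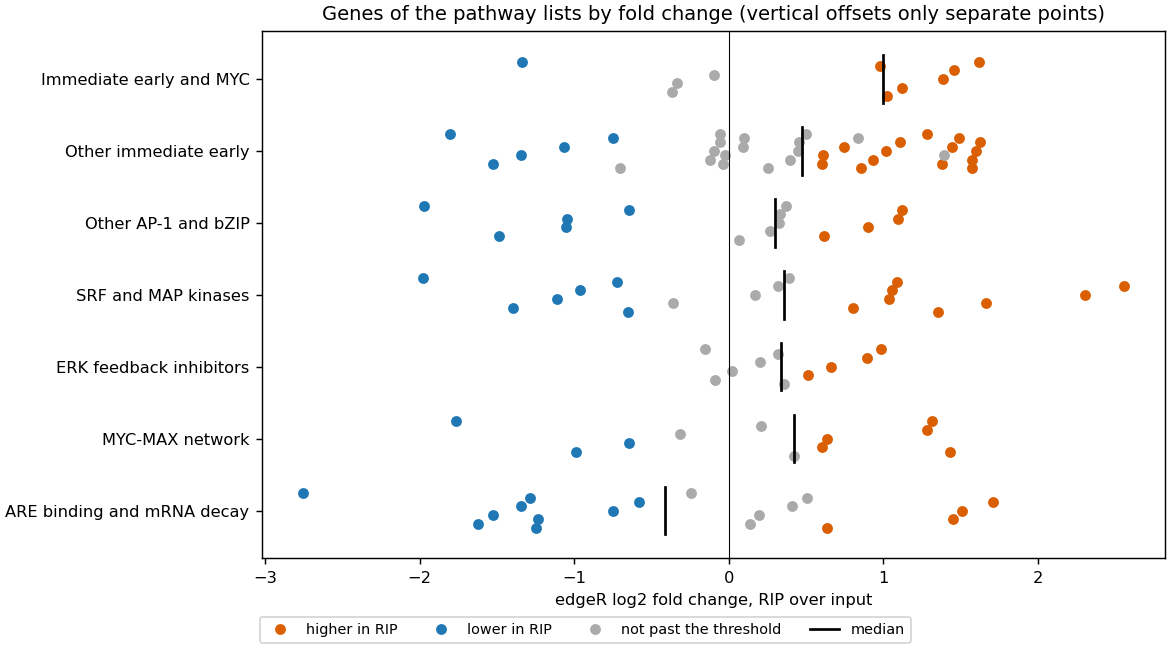
Log2 fold changes of RIP over input in edgeR for the 10 genes and for the genes of the 6 pathway lists, 1 point per gene, coloured by call, with the median of each list as a bar. The members' median is 1.0 and the decay list has the lowest, -0.42.

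Over the 8 libraries, genes whose log2(FPKM + 1) followed that of FOS most closely among 11786 searched were RASA3 and FBXO2, each with a Pearson r of 0.98, and LDHA with 0.97. Those closest to MYC were ALDH9A1, HDAC1 and ACY1, each with 0.99. Among the members, FOS and IER2 had an r of 0.86 and JUNB and JUND of 0.84. These are descriptions over 8 points that share 4 cell lines.

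The libraries held between 34630360 and 54209624 recovered fragments. Of 4 tested RNAs known to stay in the nucleus, RN7SK, MALAT1 and NEAT1 were lower in RIP, and the part of such RNA in the values above was not tested. KCNQ1OT1 did not pass, with a log2 fold change of -0.09. The 5 RNAs of that list, with MEG3 too low to test, summed to 14067 to 257319 FPKM in the inputs and 977 to 5634 in RIP, of which RN7SK alone held 13829 to 256001 and 926 to 5304 FPKM. The 8 mitochondrial RNAs summed to 3817 to 43496 FPKM in the inputs and 153 to 2812 in RIP, and all 8 were lower. Hepatocyte markers summed to 15652 and 22090 FPKM in Hep3B and to between 1.32 and 41.5 in the other 6 libraries, which sets the hepatocellular line apart from the others but not Hep3B from Huh7. Of 4 epithelial markers, 3 were higher in RIP, KRT8 among them, against 26.5% of all genes tested. The fourth, EPCAM, did not pass, with a log2 fold change of -0.38, and on TMM-scaled counts it was lower in all 4 lines.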

How the data were processed

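RNA from RPS6 immunoprecipitation and input of 4 cell lines was sequenced from a stranded total RNA kit. Per the study's methods, reads were aligned to hg19 with TopHat, and the processing notes list TopHat2 2.0.9 and CASAVA 1.8. The tool that counted fragments is not given in the sources used here. The authors deposited FPKM, normalized for length and depth, and an estimated count per gene that need not be whole. In these counts 1 fragment stood for 0.67 to 1.02 in the inputs and 1.09 to 1.27 in the RIP libraries. The counts tested were therefore already scaled per library. Recovered fragments gave the same 6 members higher and 1 lower in edgeR. Tables of fold changes, p-values and q-values for each line were deposited too and were not used.

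The design assumed raw counts. The estimated counts were rounded and tested with edgeR 4.0.16 (R 4.3.3; quasi-likelihood test, TMM, cell line as a block, mean of at least 10 counts, Benjamini-Hochberg over 19921 genes, threshold 0.05). SE is the log2 fold change over the root of F. Each RIP shares its line with its input: deviations from the group means correlated with r of 0.81 to 0.86 within a line and at most -0.04 between lines. Such deviations cancel over the 4 lines, which pushes the values between lines below 0. The value between lines is therefore no test of the pairing. FPKM ratios used a pseudocount of 1 and genes with a mean of at least 1 FPKM. Fragments were recovered from the common step of the estimated counts (92.1% to 93.7% of values whole within 0.01), with a floor of 3 fragments. Wilson intervals cover counting error only, since fragments are not independent molecules. Scripts were tested on simulated counts. Other genes named are the 2 highest and 2 lowest called per list that moved the same way in all 4 lines. The members and lists were chosen with earlier results of these data known. DESeq2 1.42.0 and limma 3.58.1 were used in alternatives.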

Additional observations from a re-analysis of the deposited data

Results flagged for a closer look

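Of 30 groups of 4 values searched, 2 held a value far from the others, and chance alone flags about 1 in 20 such groups. With 1 added to each FPKM, the log2 ratio of RIP to input for FOS was 1.48 in DU145 and 0.76 to 0.83 elsewhere. This was a gap of 0.897 of the range. On TMM counts DU145 had 1.37 and the others 0.95 to 1.16. Without the added 1, the FPKM of FOS was 3.98 fold higher in RIP in DU145 and 3.50 fold in Hep3B. It was 2.35 fold higher in SW1990 and 1.93 fold in HCT116, so DU145 did not stand apart on that scale. The JUN level in the inputs, as log2 of (FPKM + 1), was 1.97 in HCT116 and 3.97 to 4.04 in the other lines, a gap of 0.967 of the range.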

How the results depend on the processing

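Under 14 other settings, JUND passed the test in all 14, JUNB, MYC, EGR1 and IER2 in 13, FOS in 10, JUN in 9, FOSL1 in 1, and IER3 and ATF3 in 0. Of the 140 fold changes of the members, 123 kept their direction and side of the threshold. Without the replicate block on the cell line, edgeR called 1 member higher (JUND) and 0 lower (1 at an unadjusted p under 0.05), with 1427 of all genes higher and 1344 lower, and 4 list genes higher and 5 lower. With the block these were 5282 and 4960 of the 19921 genes tested, and 40 and 25 of the 107 list genes, of which BATF, EGR2 and MYCN were not tested. The shared cell line sets the pairing.

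With library total scaling, chosen after seeing the data, the median of all genes moved by -0.35 (log2). It moved by -0.55 with no minimum on counts, -0.12 with the upper quartile, and 0.18 and 0.20 with limma. With library totals, 37.9% of calls were higher against 51.6%, 2 members were lower (FOSL1 and EGR1), 25 list genes were higher, and FOS (0.77) and JUN (0.68) did not pass. With limma on log2(FPKM + 0.1), 3264 of all genes were lower and JUN had an adjusted p of 0.0617. FOSL1 turned to 0.21 in that setting, and IER3 turned to 0.049 without the replicate block. Leaving out 1 line at a time gave IER3 between -0.21 and 0.031, the last without SW1990. The mean FOS ratio was 1.40 with a pseudocount of 0.1. With RIP libraries in place of inputs, 5 genes rather than 8 were highest in HCT116. Depth limits FOS and FOSL1 in Hep3B. The cause of these shifts was not tested.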
